A study of Mus musculus with 8 samples.

Results

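The genes described here form the junctions, the transport barrier and the leukocyte docking surface of brain blood vessels. They are Cldn5, Ocln and Tjp1 (tight junctions), Cdh5 and Pecam1 (contacts between endothelial cells), Mfsd2a (lipid transport), Vwf (haemostasis), and Icam1, Vcam1 and Sele (leukocyte adhesion). Probes were assigned to these symbols through the RefSeq accession printed for each probe, which gave 12 probes for 10 genes, out of 22911 genes with a probe. Vcam1 and Tjp1 have 2 probes each, and every other gene has 1. Each gene is described by its brighter probe, within the 4 tissue arrays and, separately, within the 4 T cell arrays.

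RNA of 8 mouse samples was hybridised to one-colour microarrays, 1 array for each group. The tissue arrays held RNA of brain slice 3, taken on the ischemic side at day 14 from wild type (WT) and DEREG mice, each after sham surgery (WT sham, DEREG sham) and after stroke (WT ischemia, DEREG ischemia). The T cell arrays held RNA of CD4 T cells: regulatory T cells (Treg) and the remaining CD4 T cells (nonTreg) from the brain of WT mice at day 14 of stroke, and the same pair of populations from the spleen of untreated mice. DEREG mice carry a transgene in which regulatory sequences of Foxp3, the lineage factor of Treg, drive a diphtheria toxin receptor. The receptor makes Treg sensitive to the toxin. Whether toxin was given, how many animals went into a sample, their age and how Treg were separated from nonTreg are not stated in the labels used here.

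Endothelial cells of the brain are sealed to each other by claudins and occludin, which scaffold proteins such as ZO-1 tie to the cytoskeleton, and by VE-cadherin in the adherens junctions below. Mfsd2a carries lysophospholipids with omega-3 fatty acids into the brain and keeps vesicle traffic across the endothelium low. In inflammation, cytokines that act through NF-kB make endothelial cells expose E-selectin, ICAM-1 and VCAM-1, on which leukocytes roll and then arrest through their selectin ligands and integrins. Von Willebrand factor is stored with P-selectin in Weibel-Palade bodies of endothelial cells and captures platelets once released.

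A level is given as scaled signal, the processed spot brightness in arbitrary units after each array was brought to the common 75th percentile of its set. It can be compared between arrays of a set for 1 probe, and not between genes. A probe that the scanner software did not mark as well above background has no measured level, and a fold against it is given as "at least", taken against the dimmest signal that could be called on that array or the probe's own signal, whichever was higher. Differences are log2 values with the error that the scanner software's error model gives for the spots, which is a technical error. No group has a second array, so no difference has a replicate check, no test was run, and 2-fold is used as a size, not as a test. The number of arrays limits the precision. The share of probes well above background ran from 62.0% to 65.1% over the tissue arrays and from 47.6% to 51.9% over the T cell arrays.

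Markers were read first as a check of the labelled tissue. All 20 pan-endothelial marker genes and all 9 neuronal marker genes were well above background on all 4 tissue arrays. The summed signal of the endothelial list was 31306 after sham surgery and 58269 after stroke in WT, and 34847 and 81245 in DEREG. That of the neuronal list went the other way, from 172357 to 46630 in WT and from 161182 to 21091 in DEREG. In slices of whole tissue, fewer cells of a type and less RNA per cell cannot be told apart. The WT ischemia slice also held choroid plexus transcripts, with a summed signal of 30218 over 7 genes against 1690 in DEREG ischemia, 596 in WT sham and 1073 in DEREG sham. Their part in the results below was not tested.

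After stroke Icam1, Vcam1, Cdh5 and Vwf were higher than after sham surgery in both genotypes, whereas the tight junction genes and Mfsd2a lay within 2-fold. In WT, 4 of the 9 members with a comparison were higher by 2-fold or more (Cdh5, Vwf, Icam1 and Vcam1) and none was 2-fold lower. Among all 16968 genes compared, 18.8% were 2-fold higher and 18.4% 2-fold lower, so a share of this size in both directions is the background of this comparison. In DEREG the same 4, out of 10, passed 2-fold upwards and none downwards, where 22.4% of 17161 genes were higher and 22.1% lower. The median difference of the compared members was 0.54 in WT and 0.86 in DEREG, against -0.14 and -0.06 over all genes.

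**Figure D1:**
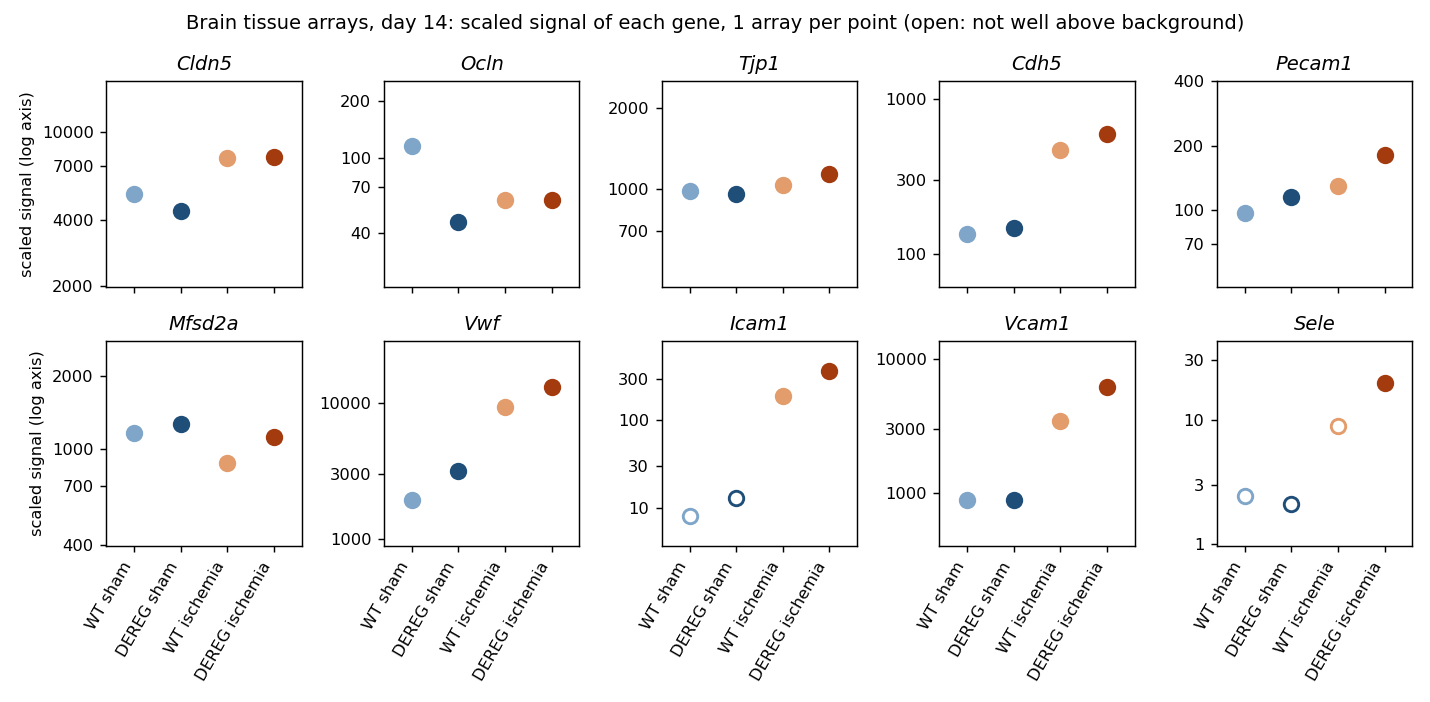
Scaled signal (log axis, arbitrary units) of each gene on the 4 tissue arrays, with 1 point per array and open points where the probe was not well above background. Vwf, Cdh5, Icam1 and Vcam1 were higher on both ischemia arrays than on both sham arrays, Tjp1 stayed between 963 and 1142, and Ocln was highest in WT sham at 116.

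Cldn5 encodes claudin-5, the main claudin of brain endothelium. Its scaled signal was 5252 after sham surgery and 7648 after stroke in WT, and 4387 and 7758 in DEREG. Both ischemia arrays were above both sham arrays, by 1.46-fold in WT (log2 0.54 ± 0.20) and 1.77-fold in DEREG (0.82 ± 0.20). With the arrays scaled to the mean log2 signal of the endothelial marker genes in place of the 75th percentile, the same differences had the opposite sign, at -0.30 and -0.32. Against the median of those genes they were -0.06 and -0.10.

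Ocln encodes occludin, a membrane protein of tight junction strands. The scaled signal was 116 after sham surgery and 60.1 after stroke in WT, and 45.9 and 59.9 in DEREG. The WT sham array stood apart, and the other arrays were close together. The ischemia array was accordingly 1.93-fold below the sham array in WT (-0.95 ± 0.22) and 1.30-fold above it in DEREG (0.38 ± 0.23), the second within 2 errors of zero and at -0.76 with endothelial scaling. Against the median of the endothelial marker genes the differences were -1.56 in WT and -0.54 in DEREG.

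Tjp1 encodes ZO-1, the scaffold that links claudins and occludin to actin. Scaled signals were 990 after sham surgery and 1040 after stroke in WT, and 963 and 1142 in DEREG. The values overlapped within the technical error, with differences of 0.07 ± 0.20 in WT and 0.24 ± 0.20 in DEREG, which became -0.77 and -0.90 with endothelial scaling. Against the median of the endothelial marker genes the differences were -0.54 and -0.68. The dimmer Tjp1 probe ran from 145 to 186 and gave 0.08 and 0.30.

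Cdh5 encodes VE-cadherin, the cadherin of endothelial adherens junctions. The tissue arrays gave 135 after sham surgery and 469 after stroke in WT, and 148 and 597 in DEREG. Ischemia arrays lay well above sham arrays, by 3.47-fold in WT (1.79 ± 0.21) and 4.04-fold in DEREG (2.02 ± 0.21). With endothelial scaling the differences were 0.96 and 0.88, below 2-fold and still higher. Against the median of the endothelial marker genes they were 1.19 and 1.09, past 2-fold.

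Pecam1 encodes CD31, which joins neighbouring endothelial cells and is also carried by platelets and leukocytes. Its scaled signal was 97.1 after sham surgery and 130 after stroke in WT, and 115 and 182 in DEREG. The order was the same as for Cdh5 but the steps were smaller, 1.34-fold in WT (0.42 ± 0.21) and 1.59-fold in DEREG (0.67 ± 0.21), with the opposite sign under endothelial scaling (-0.42 and -0.47). Against the median of the endothelial marker genes the differences were -0.19 and -0.26.

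Mfsd2a was the one gene besides Ocln with a lower signal after stroke in WT. The scaled signal was 1159 after sham surgery and 869 after stroke in WT, and 1266 and 1118 in DEREG. The ischemia array was 1.33-fold lower in WT (-0.42 ± 0.20) and 1.13-fold lower in DEREG (-0.18 ± 0.20), the latter within 2 errors of zero. With endothelial scaling the differences were -1.25 and -1.32, past 2-fold in both genotypes. Against the median of the endothelial marker genes they were -1.02 and -1.11.

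Vwf encodes von Willebrand factor. Scaled signals were 1948 after sham surgery and 9411 after stroke in WT, and 3174 and 13088 in DEREG. No ischemia value overlapped a sham value, and the difference was 4.83-fold in WT (2.27 ± 0.20) and 4.12-fold in DEREG (2.04 ± 0.20). With endothelial scaling the differences were 1.43 and 0.90, the latter below 2-fold. Against the median of the endothelial marker genes they were 1.67 and 1.12. Megakaryocytes and platelets also make the protein, so the platelet list was read beside it. Of its 7 genes, 3 to 5 were well above background per array, Ppbp and Gp1ba were dim on every tissue array, and Pf4 ran from 152 on both sham arrays to 2257 in WT ischemia and 1697 in DEREG ischemia. The summed platelet signal went from 276 to 2703 in WT and from 277 to 2224 in DEREG, and its part in the Vwf result was not tested.

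The adhesion genes open with a look at their upstream DNA, because Icam1 and Sele are textbook NF-kB targets. RefSeq promoter windows (mouse build GRCm38.p6) were found for 6 of the 10 genes, with 7 start sites. Cdh5, Pecam1, Vwf and Vcam1 had no entry in that table. The 250 bases before the start are printed in lower case with the searched letters in capitals.
Icam1, chr9:21015690-21015939, plus strand: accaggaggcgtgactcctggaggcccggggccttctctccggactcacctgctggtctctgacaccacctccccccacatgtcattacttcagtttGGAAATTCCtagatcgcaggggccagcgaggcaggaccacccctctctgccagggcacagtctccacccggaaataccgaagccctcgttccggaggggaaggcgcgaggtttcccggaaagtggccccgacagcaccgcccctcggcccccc
Sele, chr1:164047984-164048233, plus strand: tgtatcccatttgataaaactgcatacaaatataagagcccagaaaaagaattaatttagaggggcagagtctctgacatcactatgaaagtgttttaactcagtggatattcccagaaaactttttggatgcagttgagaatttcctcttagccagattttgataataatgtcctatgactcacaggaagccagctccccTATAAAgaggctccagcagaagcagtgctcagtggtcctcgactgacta
The capitals in Icam1 mark a match to the kB core letters GGANTTTCC, read on the minus strand, that begins 153 bases before the start. It was the only match among the 7 windows, and 1.07% of 32851 mouse windows of this length held one on either strand. The capitals in Sele mark the TATA box letters TATAAA, 49 bases before the start, which 12.4% of windows held. The NF-kB consensus, a more permissive pattern searched by name on both strands, was in none of the 7 windows and in 3.90% of all. The Icam1 window had 65.2% G and C and the Sele window 40.4%, where the median over all windows was 52.4%. A match describes the letters of a window, and none of these data measured binding. Only these letter patterns were searched, so a window without a match may still hold an NF-kB site.

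Icam1 encodes ICAM-1, the endothelial ligand of the leukocyte integrins LFA-1 and Mac-1. On the sham arrays its signal of 8.03 (WT) and 12.9 (DEREG) was not well above background, and after stroke it read 192 in WT and 369 in DEREG. It was therefore measurable only on the ischemia arrays, at least 15.9-fold higher than sham in WT and at least 28.5-fold higher in DEREG. A background model that adds a constant to every spot, which compresses dim probes, gave log2 differences of 1.72 and 2.54 in place of bounds of 3.99 and 4.84.

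Vcam1 encodes VCAM-1, the ligand of the integrin VLA-4. The tissue arrays gave 875 after sham surgery and 3421 after stroke in WT, and 876 and 6176 in DEREG. The sham arrays were equal and both ischemia arrays higher, by 3.91-fold in WT (1.97 ± 0.20) and 7.05-fold in DEREG (2.82 ± 0.20). The dimmer Vcam1 probe went from 36.5 to 268 in WT and from 50.5 to 442 in DEREG, 7.33-fold and 8.75-fold higher after stroke, so the probes share a direction and differ in size.

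Sele encodes E-selectin, a rolling receptor that resting endothelium largely lacks. In WT the signal was 2.43 after sham surgery and 8.83 after stroke, and in DEREG it was 2.10 and 19.6, of which only the 19.6 of DEREG ischemia was well above background. DEREG ischemia was the one tissue array on which it could be called, at least 1.86-fold above DEREG sham and at least 1.74-fold above WT ischemia. In WT the stroke comparison has no measured side and no fold is given.

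**Figure D2:**
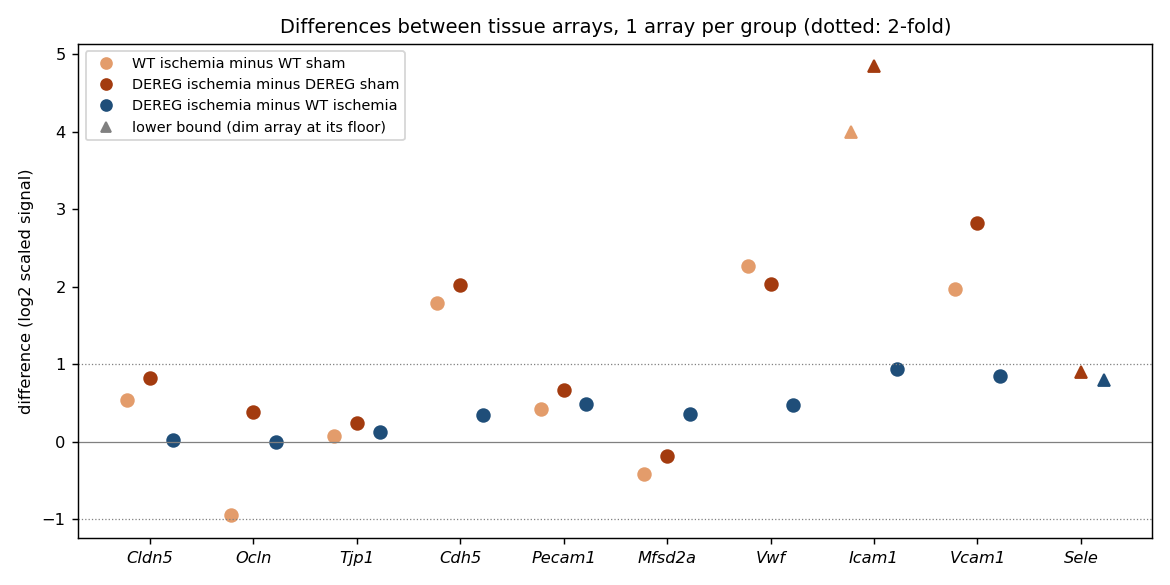
Log2 differences between tissue arrays for the genes that could be compared, with triangles for lower bounds and dotted lines at 2-fold. The stroke comparisons place Vwf, Vcam1, Cdh5 and Icam1 at or beyond 1.79 in both genotypes, while no measured difference reached 2-fold between DEREG ischemia and WT ischemia.

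The members were then set against the 20 pan-endothelial marker genes, none of which is a member. The 20 genes had a median stroke difference of 0.61 in WT, from -0.07 (Flt1) to 3.16 (Cd93), and of 0.93 in DEREG, from 0.06 to 3.56. Cdh5, Vwf and Vcam1 were above 18 of the 20 in WT, and above 16, 16 and 19 of them in DEREG. Cldn5 was above 8 in WT and 10 in DEREG, in the middle of the list, and Pecam1 above 6 and 8. Tjp1 was above 1 in WT and 2 in DEREG. Mfsd2a was below all 20 in both genotypes, and Ocln below all 20 in WT but above 4 in DEREG. Counts of this kind have no error, since each gene has 1 array per group. Among 12 genes enriched in brain endothelium, 2 were 2-fold higher and 1 lower in each genotype, with medians of 0.26 and 0.36. Over all genes, 18.8% were 2-fold higher and 18.4% lower in WT, and 22.4% and 22.1% in DEREG. Each list count of stroke differences below is to be read beside these shares. Slc2a1, the glucose transporter of the barrier, differed by 0.52 and 0.63, Abcg2, an efflux pump, by 1.31 and 1.33, and Spock2, which neurons also make, by -1.78 and -2.54.

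Other junction and transport genes were mixed. Of 16 further tight junction genes compared, 8 were 2-fold higher and 1 lower in WT (median 0.97), and 7 and 1 in DEREG (0.90). The largest differences were those of Tjp3, the scaffold ZO-3 (4.35 in WT and 3.05 in DEREG), Cgn, the adaptor cingulin (2.64 and 2.71), and F11r, the adhesion molecule JAM-A (2.37 and 2.63). All of these are also made by epithelial cells, and F11r by leukocytes. Krt18, an epithelial keratin, was 10.2 after sham surgery (not well above background) and 623 after stroke in WT, and 39.7 and 91.1 in DEREG, and Epcam was not well above background on any tissue array. Their part in these counts was not tested. Cldn12 was the gene that was lower, by 1.35 in WT and 1.37 in DEREG. Of 14 binding partners and regulators of VE-cadherin, 2 were higher and 1 lower in WT (median 0.27) and 3 and 1 in DEREG (0.42). The share of all genes that were higher was 18.8% in WT and 22.4% in DEREG. Ctnnb1, encoding beta-catenin, differed by 0.19 and 0.40 where Cdh5 differed by 1.79 and 2.02.

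Genes of vesicle traffic, barrier induction and transport also held both higher genes and genes within 2-fold. Of 7 caveolar genes, 3 were 2-fold higher in each genotype (medians 0.62 and 0.78). They were Ehd4 (3.12 in WT and 3.52 in DEREG), Cavin1 (1.97 and 1.82) and Cav1, the coat protein caveolin-1 (1.23 and 1.48). Plvap, the diaphragm protein of leaky vessels, differed by -0.38 and -0.32. Of 20 genes of Wnt and norrin signalling, which induces the barrier, 4 were higher in each genotype and none lower. Their medians were 0.22 and 0.23. A count of 4 in 20 is close to the share of all genes that were higher, 18.8% in WT and 22.4% in DEREG. Of 17 barrier transporters compared, 7 were higher and 2 lower in WT (0.57) and 6 and 2 in DEREG (0.63). Slco2b1, which macrophages also express, was the highest of these at 2.69 and 2.92. Of 7 genes of lipid handling set beside Mfsd2a, 4 were higher in each genotype, led by the fatty acid binding protein gene Fabp5 (2.38 and 3.15), and 2 were lower in WT and 1 in DEREG.

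Among 15 transcription factors of endothelial cells, 8 were 2-fold higher in WT and 11 in DEREG and none lower, with medians of 1.36 and 1.52. Lyl1, which blood cells share, differed most at 3.78 and 4.18, and Elk3 differed by 2.92 and 3.18 and Fli1, an ETS factor that leukocytes also use, by 2.91 and 3.34. Erg, the ETS factor most restricted to endothelium, differed by 0.75 and 1.07. All 12 macrophage markers were 2-fold higher in both genotypes (medians 4.02 and 4.48), and their part in these counts was not tested.

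The list of inducers of endothelial adhesion molecules also holds NF-kB subunits, inhibitors and chemokines. Its genes were higher after stroke almost throughout. Of 22 inducers and NF-kB feedback genes compared in WT, 20 were 2-fold higher and none lower (median 2.90), and in DEREG 22 of 23 (3.66). Tnf, an inducer of Icam1, Vcam1 and Sele, had a scaled signal of 17.2 after sham surgery and 112 after stroke in WT, and 19.3 and 165 in DEREG. Il1b was not well above background on either sham array and reached 454 and 499. Ifng, the T cell cytokine interferon gamma, was not well above background on either sham array, 23.2 in WT ischemia and 82.7 in DEREG ischemia. Nfkbia, which encodes the NF-kB inhibitor that NF-kB itself induces, went from 2693 to 10640 in WT and from 3486 to 19554 in DEREG. The part of microglia and macrophages in these values was not tested.

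Most leukocyte receptors for the adhesion genes were higher as well. Of 13 genes, 9 were 2-fold higher and none lower in WT (median 2.08), and 9 higher and 1 lower in DEREG (2.59). Itgb2, the beta chain shared by LFA-1 and Mac-1, was 84.7 after sham surgery and 2982 after stroke in WT, and 91.3 and 4032 in DEREG. Itgam, the alpha chain of Mac-1, went the other way. It was 19285 after sham surgery and 9773 after stroke in WT (-0.98), and 17342 and 7827 in DEREG (-1.15). In the T cell libraries the Itgam signal was 2014 in brain and 3570 in spleen Treg, and 1973 and 3928 in nonTreg. Whether the probe signal reports Itgam alone was not tested. Itga4, the VLA-4 chain that binds VCAM-1, went from 234 to 682 in WT and from 266 to 1102 in DEREG. Cd44, a ligand of E-selectin, went from 19.1 to 714 and from 29.0 to 1454. The cells that carried the receptors and their endothelial partners cannot be told apart in whole tissue.

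Further adhesion and storage genes of the vessel wall included some of the widest gaps. Selp, encoding P-selectin, was 3.37 and 5.72 on the sham arrays, neither well above background, 197 in WT ischemia and 337 in DEREG ischemia, which is at least 16.3-fold and at least 32.1-fold higher. Of 12 other endothelial adhesion genes compared in WT, 4 were 2-fold higher and none lower, and in DEREG 6 of 11 were higher and 1 lower. Among 15 genes of Weibel-Palade bodies and Vwf partners, 7 were higher and 3 lower in WT (median 0.48) and 7 and 2 in DEREG (0.87). Procr, the endothelial protein C receptor, differed by 3.88 and 4.60. Angpt2, which is stored in the same bodies as Vwf, differed by 0.45 and 0.65.

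**Figure D3:**
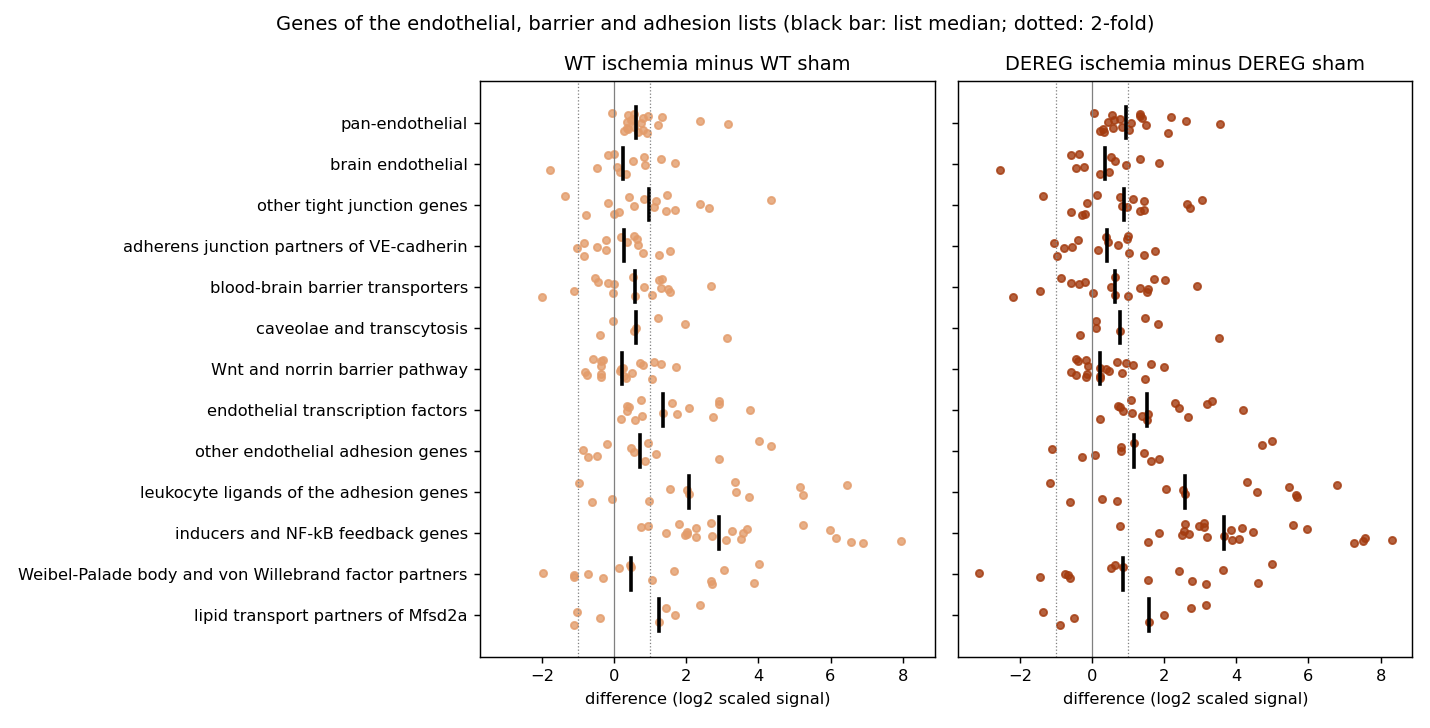
Log2 stroke differences of the genes of each fixed list in WT and DEREG, with the list's median marked. The inducers and NF-kB feedback genes have medians of 2.90 in WT and 3.66 in DEREG, and the Wnt and norrin genes 0.22 and 0.23.

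The comparison of DEREG ischemia with WT ischemia asks what differs in the ischemic slice of mice whose Treg can be depleted. None of the 10 genes reached 2-fold, with Sele as a bound of at least 1.74-fold, where 2.36% of 16857 genes were higher and 5.37% lower. The signals of Icam1 (1.92-fold, 0.94 ± 0.21), Vcam1 (1.81-fold, 0.85 ± 0.20), Pecam1 (1.40-fold, 0.49 ± 0.21) and Vwf (1.39-fold, 0.48 ± 0.20) were higher in DEREG by more than 2 technical errors. With endothelial scaling these differences were 0.65, 0.56, 0.20 and 0.18, of which those of Pecam1 and Vwf lay within 2 technical errors of zero. Cdh5 (0.35), Mfsd2a (0.36), Tjp1 (0.13), Cldn5 (0.02) and Ocln (0.00) lay within 2 errors of zero, and endothelial scaling made the last 3 negative (-0.16, -0.27 and -0.30). The median of the 10 genes was 0.42, of the 20 endothelial genes 0.29 and of all genes 0.08, and Vcam1 was above 19 of the 20.

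The inducers and NF-kB feedback genes differed more than the junction lists between these 2 arrays. Of 23 inducers and NF-kB feedback genes, 11 were 2-fold higher in DEREG ischemia and none lower (median 0.96), with Ifng at 1.84, Ccl2, a monocyte chemokine, at 1.80 and Cxcl10, an interferon-induced chemokine, at 1.68. Ccl2 and Cxcl10 were already higher in DEREG sham than in WT sham, by 1.45 and 1.32, so their stroke differences were 0.35 and 0.36 apart. Of 13 leukocyte receptors, 3 were higher and none lower (median 0.44), among them Itgb7 (1.51) and Cd44 (1.03). Of 9 T cell markers, 7 were higher (median 1.48), with a summed signal of 7400 in DEREG ischemia and 2733 in WT ischemia. Among the tight junction, VE-cadherin, transporter, caveolar and Wnt lists, the one gene at 2-fold was Cldn1, lower by 1.21. It was 31.4 after sham surgery and 86.7 after stroke in WT, and 34.0 and 37.4 in DEREG, where WT ischemia is also the array with the choroid plexus signal.

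Between the sham arrays, Ocln was 2.53-fold lower in DEREG (-1.34 ± 0.22) and was the 1 of 8 genes at 2-fold, where 0.449% of 16273 genes were 2-fold lower and 0.590% higher. The background model with a constant added gave -0.79 for the same difference. Vwf was 1.63-fold higher in DEREG sham (0.70 ± 0.20), above all 20 endothelial genes, whose median was -0.03. The other 6 genes were within 2 technical errors of zero. The stroke difference was larger in DEREG than in WT by 1.33 ± 0.31 for Ocln and by 0.85 ± 0.29 for Vcam1, and for the other 6 genes measured on all 4 arrays by -0.23 to 0.28, within 2 errors. The Vcam1 gap was that of the brighter probe, and the dimmer probe had stroke differences of 2.87 in WT and 3.13 in DEREG and sham arrays that differed by 0.47. Ocln was the 1 of 8 genes at 2-fold in that comparison, where 0.906% of 15120 genes were higher and 5.21% lower, and with the added constant it was 0.85. All of these comparisons share arrays, and the Ocln values of both rest on the single WT sham array.

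Genes with the most similar pattern over the 4 tissue arrays were found by the largest gap between centred log2 profiles, for the members that spanned 2-fold and were measured on all arrays. Cdh5 had many such neighbours, with 454 of 15119 genes within 0.25. The closest were Cacna1s (gap 0.03), Mertk (0.04) and Tead2 (0.04). Vcam1 had 125, with Stat2, an interferon signalling factor, closest at 0.03, then Rbpj and Tm4sf1 at 0.07. Vwf had 40, led by Syne3 at 0.06. Ocln had 2, Ppp1r3e at 0.23 and Ttc23 at 0.25. A pattern over 4 arrays has few degrees of freedom, and likeness here says nothing of shared control.

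In the T cell arrays, transcripts of the barrier genes were present in both brain libraries and mostly not measurable in the spleen libraries. Of the 10 genes, 8 were well above background in each brain library, 3 in spleen Treg and 2 in spleen nonTreg. Ocln and Sele stayed below that mark in all 4, with signals of at most 6.44 and 7.18. All 9 T cell markers were well above background in all 4 libraries, with summed signals from 205021 to 224255 and no difference of 2-fold in any comparison.

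**Figure D4:**
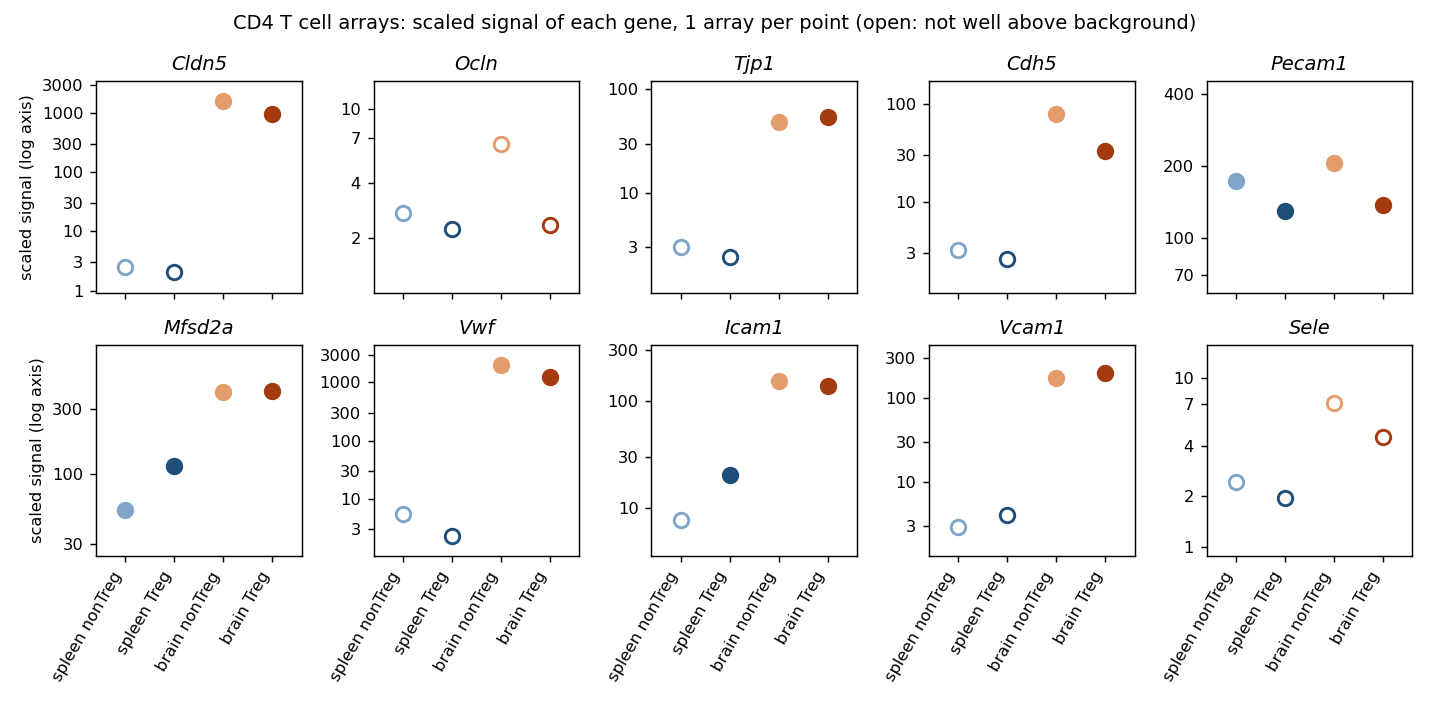
Scaled signal (log axis, arbitrary units) of each gene on the 4 CD4 T cell arrays, with 1 point per array and open points where the probe was not well above background. Cldn5 was 941 and 1562 on the brain arrays and at most 2.53 on the spleen arrays, whereas Pecam1 lay between 130 and 207 on all 4.

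Cldn5 had a scaled signal of 941 in brain Treg and 1562 in brain nonTreg, and no measurable level in the spleen, where Treg read 2.02 and nonTreg 2.53, both not well above background. The gap was at least 95.5-fold in Treg and at least 126-fold in nonTreg. Vwf was 1239 and 2034 in the brain libraries against 2.29 and 5.61, not well above background, in the spleen libraries, at least 126-fold and at least 165-fold. Cdh5 was 33.1 and 79.0 in the brain libraries, at least 3.36-fold and at least 6.39-fold above spleen libraries that were not well above background. Tjp1 was 54.6 and 48.1, at least 5.55-fold and at least 3.90-fold above spleen libraries that were again not well above background. The dimmer Tjp1 probe read 5.83 in brain Treg and 2.74 in brain nonTreg and was not well above background in any T cell library. These 4 genes thus had a measured level in the brain libraries alone, Tjp1 by its brighter probe only.

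Vcam1 was 196 in brain Treg and 174 in brain nonTreg, and dim in both spleen libraries, which is at least 19.9-fold and at least 14.0-fold. The dimmer Vcam1 probe gave at least 2.57-fold and at least 2.55-fold. Icam1, which activated T cells also express, was 137 in brain Treg and 20.1 in spleen Treg, and 153 in brain nonTreg with 7.77, not well above background, in the spleen nonTreg. It was 6.82-fold higher in brain than in spleen Treg (2.77 ± 0.27) and at least 12.4-fold higher in nonTreg.

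Pecam1 and Mfsd2a were the members measured in all 4 T cell libraries. Pecam1, which leukocytes carry, was 138 in brain Treg and 130 in spleen Treg, and 207 and 174 in the nonTreg of brain and spleen, with brain and spleen within 2 technical errors of each other in both populations. Mfsd2a was 408 in brain Treg and 113 in spleen Treg, and 398 and 54.0 in the nonTreg of brain and spleen. It was 3.61-fold higher in brain than in spleen Treg (1.85 ± 0.21) and 7.38-fold higher in nonTreg (2.88 ± 0.22). The brain libraries differed by 0.03 ± 0.20, and spleen Treg were 2.09-fold above spleen nonTreg (1.07 ± 0.22). The genes closest to this pattern over the 4 T cell arrays were Igsf9b (gap 0.16), Wee1 (0.18) and Nucb2 (0.19), and 9 of 11300 genes lay within 0.25.

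Counted together, 7 of 8 members passed 2-fold towards brain Treg over spleen Treg and none the other way, where 17.2% of 13779 genes were higher and 11.7% lower. In nonTreg the same 7 of 8 were higher and none lower, where 17.8% of 13404 genes were higher and 12.1% lower. In most of them the spleen side was not well above background, and with genes measured on both arrays alone the counts were 2 (Mfsd2a and Icam1) and 1 (Mfsd2a). Between the spleen libraries 1 of 3 genes (Mfsd2a) was 2-fold higher in Treg, where 5.38% of 12546 genes were higher and 3.24% lower. The brain against spleen difference of Mfsd2a was smaller in Treg than in nonTreg by 1.03 ± 0.30, the 1 of 2 genes past 2-fold in that comparison, where 2.30% of 11301 genes were higher and 3.79% lower. It fell short of 2-fold with the added constant (-0.47), with quantile normalization (-0.97) and with the median as scaling point, the last by less than the rounding, and the spleen difference of Mfsd2a was 0.42 with the added constant.

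Markers of the pan-endothelial list mostly moved with these genes, whereas the list of genes enriched in brain endothelium was mixed. Of the 20 pan-endothelial markers, 17 were well above background in brain Treg (Tie1, Erg and Cyyr1 were not), and all 20 in brain nonTreg, against 5 and 6 in the Treg and nonTreg of the spleen. Flt1, a VEGF receptor, was 277 in brain Treg and 392 in brain nonTreg, and both spleen libraries were not well above background. Egfl7, a secreted endothelial protein gene, was 791 in brain against 23.4 in spleen Treg, and 1135 against 18.8 in nonTreg. The summed list was 32958 in brain and 16630 in spleen Treg, and 57065 and 21692 in nonTreg. Most of that sum was Ly6c1, which T cells also express, with 30347 and 16385 in Treg and 53556 and 21493 in nonTreg. Of the 12 genes enriched in brain endothelium, 12 were well above background in each brain library and 9 in each spleen library. Their summed signal was 18840 in brain and 15508 in spleen Treg, and 26669 and 33443 in nonTreg. Most of the spleen nonTreg sum was Lef1, with 26414, which differed between brain and spleen by -1.33 in Treg and -2.63 in nonTreg. Of 12 pericyte and mural cell markers, 10 were well above background in brain Treg, 11 in brain nonTreg and 5 in each spleen library. Microglia and macrophage markers were mostly higher in the brain libraries too. Siglech, on the microglia list, was lower there, with 11411 in brain and 24164 in spleen Treg (-1.08), and 12180 and 23810 in nonTreg (-0.97). Of 12 microglia markers, 12 were well above background in each brain library, 4 in spleen Treg and 5 in spleen nonTreg, with median brain against spleen differences of 4.81 in Treg and 3.75 in nonTreg over the genes compared. The macrophage and monocyte list gave 4.87 and 3.83. Csf1r, the growth factor receptor of these cells, was 18669 in brain and 119 in spleen Treg, and 7709 and 159 in nonTreg. The cells that carried the barrier transcripts in these libraries cannot be told apart, and the part of the endothelial, microglia and macrophage markers in the differences was not tested.

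Between the brain libraries, Cdh5, Cldn5, Vwf and Pecam1 were lower in Treg than in nonTreg. Cdh5 was 2.39-fold lower (-1.26 ± 0.23), the 1 of 8 genes at 2-fold, where 2.86% of 13756 genes were lower and 4.63% higher. The background model with a constant added left none at 2-fold. Cldn5 (-0.73 ± 0.20), Vwf (-0.72 ± 0.20) and Pecam1 (-0.58 ± 0.21) were lower by more than 2 technical errors. Icam1 (-0.16), Vcam1 (0.18), Tjp1 (0.18) and Mfsd2a (0.03) lay within it. The median of the 8 members was -0.37 and that of the 20 pan-endothelial markers -0.52, with 1 marker 2-fold lower and none higher, whereas the median of all genes was 0.01. Microglia markers went the other way, with 9 of 12 at 2-fold higher in brain Treg and none lower (median 1.30), as did those of macrophages, with 6 of 11 higher and none lower (1.03). The platelet list also went the other way beside Vwf, with 4 of 7 genes well above background in brain Treg (summed signal 473) and 2 in brain nonTreg (188). Most of that sum was the single gene Pf4, with 410 in brain Treg and 159 in brain nonTreg. Ppbp, Itga2b and Gp1ba were not well above background in either.

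Most leukocyte receptors of the adhesion genes were measured in all 4 T cell libraries, and Itgax, an integrin chain of myeloid and dendritic cells, was the exception. It was 333 in brain Treg and 479 in brain nonTreg and dim in both spleen libraries, at least 33.8-fold and at least 38.7-fold. Itgb1, the beta chain of VLA-4, was 3.73-fold higher in brain than in spleen Treg and 5.62-fold higher in nonTreg. Itgal, the alpha chain of LFA-1, was 1627 in brain Treg and 1475 in spleen Treg, and 2087 and 1120 in the nonTreg of brain and spleen, and Itgb2 was 3514 and 2802 in the Treg and 4587 and 2323 in the nonTreg of brain and spleen. Itga4 was 3840 and 5766 in the Treg and 4962 and 4579 in the nonTreg, and Selplg, the P-selectin ligand PSGL-1, ran from 26252 to 34283. Itgal, Itgb2, Itga4 and Selplg did not reach 2-fold between brain and spleen, and Cd44 was 2.02 higher in brain than in spleen Treg and 2.22 higher in nonTreg.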

How the data were processed

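The submitters' processing notes name Agilent Feature Extraction 10.7.1.1 as the scanner software. Values were taken from its processed intensity, deposited by the authors per array: linear brightness after background subtraction and detrending, with arrays left unadjusted to each other according to the headers. In the series table, also deposited, the signal equals the processed intensity divided by a constant near each array's 75th percentile for 99.89% to 99.97% of probes (tolerance 0.1%), and it was used as an alternative. Its column medians were 0.110 (WT sham), 0.113 (DEREG sham), 0.123 (WT ischemia), 0.117 (DEREG ischemia), 0.0731 (brain Treg), 0.0713 (brain nonTreg), 0.0686 (spleen Treg) and 0.0681 (spleen nonTreg). Scale and centring follow from that ratio.

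Outlier spots (69 to 109 of 59305 per array) were left out, spots of a probe were averaged, and no spot was saturated. The median SD between repeated spots was 0.039 to 0.042 (log2). All arrays share 1 slide and 1 scan time per the file headers, so no batch could be tested. Of 56605 probes, 32994 matched 1 symbol of a RefSeq table (GRCm38.p6, used for names), none several and 23611 stayed unnamed. Arrays were scaled within each set to the 75th percentile, over all probes for tissue and, for T cells, over those called well above background on each of the 4 arrays. Comparisons took genes whose probe was well above background on 1 or both arrays, and differences of differences needed all 4 arrays. No test was run with 1 array per group.

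The members, the gene lists and the alternatives were chosen with earlier results of these data known. Named genes were all members, the 3 largest differences of a list in a comparison, fixed inducers, ligands and partners of members, the marker genes read as checks, and the 3 nearest patterns. A few list genes outside that rule (Angpt2, Plvap, Erg, Slc2a1 and Cldn12) were named after their values were seen, and some genes under the rule are not reported here. Normexp correction (offset 50, R 4.3.3, limma 3.58.1) used median spot and background signals. Counting was tested on simulated data. Python 3.11.15 was used for the rest.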

Additional observations from a re-analysis of the deposited data

Results flagged for a closer look

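The stroke difference of Ocln, the occludin gene, went in opposite directions in the genotypes: -0.95 in WT and 0.38 in DEREG, 1.33 apart on the log2 scale. The DEREG value is within 2 technical errors of zero, and with the arrays scaled to endothelial marker genes both values were lower after stroke, at -1.79 and -0.76. Each direction comes from 1 array against 1 array, and the difference was not tested.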

How the results depend on the processing

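No paired analysis was possible because each group has 1 array and the labels give no replicate numbers; for the same reason no replicate could be left out. Under 9 alternatives for tissue and 8 for T cells, 557 of 619 member differences were counted as unmoved and 62 as moved, and no called value changed sign. A difference was counted as moved if it shifted by more than 1.5-fold or crossed the 2-fold mark by any amount. Of 85 counts of members at 2-fold, 70 stayed within 1.5 times. The stroke counts in WT and DEREG were 4 and became 5 and 3 with endothelial scaling. There Ocln and Mfsd2a in WT and Mfsd2a in DEREG passed 2-fold as lower genes. Cdh5 in WT and Cdh5 and Vwf in DEREG no longer reached it. Against the median of the marker genes in place of their mean, Cdh5 (1.19 and 1.09) and Vwf in DEREG (1.12) stayed past 2-fold. For DEREG ischemia against WT ischemia the count became 1 with the median as scaling point (Icam1, 1.01) and 1 with no filter on dim probes (Sele, 1.15). Normexp left 0 members at 2-fold between the sham arrays, between the brain libraries, between the spleen libraries and in both differences of differences, for which Ocln was 0.85. The T cell difference of differences was also 0 with quantile normalization and with median scaling. Without a filter the counts were 2 between the brain libraries, 3 between the spleen libraries, 2 for the tissue and 3 for the T cell difference of differences. With genes measured on both arrays alone they were 2 for brain against spleen Treg and 1 for nonTreg.

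Over all genes, the number at 2-fold fell with normexp from 1303 to 576 between the ischemia arrays, from 169 to 13 between the sham arrays, from 3991 to 2167 and from 4007 to 2119 for brain against spleen Treg and nonTreg, from 1031 to 277 between the brain and from 1081 to 385 between the spleen libraries, and from 925 to 493 and 688 to 276 in the tissue and T cell differences of differences. Without a filter it was 2180 between the ischemia and 934 between the sham arrays, 2268 between the brain and 2461 between the spleen libraries, and 2840 and 3750 in the differences of differences. With measured genes alone it was 62 between the sham arrays and 706 between the spleen libraries. Endothelial scaling moved the median of all genes to -1.01 in the WT stroke comparison and -1.23 in DEREG, with 10174 genes against 6309 and 11646 against 7636 at 2-fold, of which 18.0% and 16.5% were higher against 50.5% and 50.2%. The higher share went from 30.5% to 10.8% between the ischemia arrays (1858 genes) and from 14.8% to 3.43% in the tissue difference of differences (1605 genes), where median scaling gave 26.5%. Dim probes limit Icam1, Sele and the spleen values to bounds.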
